A study of Mus musculus with 12 samples.

Results

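The genes for the proteins of the cytosolic ribosome were examined in RNA from mouse thoracic aorta. Members were the genes of the raw count table whose symbol is Rpl or Rps followed by a number and at most 1 of the letters a, l, x or y, together with Rplp0, Rplp1, Rplp2 and Rpsa. Symbols of pseudogenes ending in -ps were left out. The rule took 81 of the 27933 genes in the table, of which 50 are named for the large subunit and 31 for the small subunit (Rpsa counted with the small and the stalk genes with the large subunit). The filter on low counts left 78 of the 81 among 14621 tested genes. The names were checked against RefSeq, where Rpl6l is annotated as a pseudogene. Rps3a1, Fau and Gnb2l1 (now Rack1), which also encode ribosomal proteins, lie outside the rule and are given separately.

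The study compared wild-type (WT) mice with mice whose label gives a knockout (KO) of the alpha7 nicotinic receptor for acetylcholine, all of strain C57BL/6J and 8 months old. From 5 months of age both genotypes breathed room air or nicotine vapor over 12 weeks, which gave 4 groups of 3 libraries. Libraries 8, 9 and 10 were WT air, 6, 11 and 12 were WT nicotine, 1, 2 and 7 were KO air, and 3, 4 and 5 were KO nicotine. The aortas had been cleaned of fat and frozen before RNA was extracted, and libraries were made with a kit for very small RNA inputs. The knockout allele was not given in the sources used here, nor was whether a library holds 1 mouse or several, so p-values measure the spread between these libraries. The library numbers nearly separate the genotypes, and if they follow an order of handling, that order and genotype cannot be told apart.

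The libraries held 10240031 to 12628323 counts. Smooth muscle markers were abundant (Acta2 at 6891 to 13829 CPM, counts scaled to a common library size). Chrna7, the gene of the deleted receptor, had 9 to 37 counts in WT and 8 to 28 in KO libraries. Counts per gene do not show which exons were removed, so they do not check the genotype, and WT and KO below are the labels. KO nicotine 3 stood apart through liver transcripts: 7 hepatocyte genes, chosen with that known, summed to 2676 CPM of unscaled library totals there and to 28.9 to 497 in the other libraries. For several results that rest on KO nicotine 3, the value without it is also given. The marker lists and the medians of X-linked members are given only with it included.

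Each ribosome joins a large subunit, which forms peptide bonds, to a small subunit, which reads the mRNA. Most of their proteins are needed at a single copy per ribosome, and their mRNAs are among the most abundant in most tissues. Many of these mRNAs begin at a C followed by a run of pyrimidines, the terminal oligopyrimidine (TOP) start, through which mTORC1 and the RNA-binding protein Larp1 control their translation. Because that control acts largely on translation, an mRNA count does not measure it.

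RefSeq start windows on GRCm38.p6 were matched for 60 members. A run of at least 5 pyrimidines opening with C exactly at the annotated start was found in 13 of them (21.7%), against 3.01% of the 27025 genes with a window. The following windows show 6 such starts and 3 members without the run, chosen because their levels are described below. Each runs from 10 bases before the start to 20 bases from it, 5′ to 3′, and capitals mark the run from the start base. Rpl35 lies at chr2:39005112-39005141 (minus strand), Rpl35a at chr16:33056472-33056501 (plus), Rps10 at chr17:27635225-27635254 (minus), Rps6 at chr4:86857348-86857377 (minus), Rplp2 at chr7:141447641-141447670 (plus) and Rps18 at chr17:33955646-33955675 (minus). Rpl39 lies at chrX:37085203-37085232 (minus), Rpl37a at chr1:72711250-72711279 (plus) and Rps3 at chr7:99483690-99483719 (minus).
Rpl35: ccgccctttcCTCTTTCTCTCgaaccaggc
Rpl35a: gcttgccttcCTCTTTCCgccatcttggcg
Rps10: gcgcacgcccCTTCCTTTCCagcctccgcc
Rps6: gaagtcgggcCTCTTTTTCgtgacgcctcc
Rplp2: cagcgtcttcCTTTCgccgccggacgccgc
Rps18: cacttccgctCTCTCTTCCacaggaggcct
Rpl39: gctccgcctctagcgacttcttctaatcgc
Rpl37a: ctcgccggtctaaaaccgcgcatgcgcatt
Rps3: aagggtcgccgcgctgcgcggcgtcattgc
The runs in these windows are 5 to 11 bases long, the longest in Rpl35. The last 3 windows have no run at the annotated start base, which says nothing of transcripts that begin a few bases away.

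The word CCGGAAG or its reverse complement CTTCCGG, a core recognised by ETS-family factors, was searched on both strands from 250 bases before to 50 after each start. At least 1 of a member's windows held it in 25 of the 60 members (41.7%), against 9.93% of all genes with a window. Both the pyrimidine run and this word were held by 8 members (Rpl15, Rpl35, Rpl38, Rplp2, Rps6, Rps10, Rps18 and Rps21). For Rpl35, Rps6 and Rps10, as examples, the word is shown in capitals with the bases around it, at chr2:39005235-39005275, chr4:86857435-86857475 and chr17:27635250-27635290, all on the minus strand.
Rpl35: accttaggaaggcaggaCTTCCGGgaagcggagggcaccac
Rps6: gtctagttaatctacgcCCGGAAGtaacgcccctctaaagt
Rps10: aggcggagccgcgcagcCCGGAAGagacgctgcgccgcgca
These matches are descriptions of the sequence and not of binding.

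Ribosomal protein genes took a nearly fixed share of the counts, from 1.59% in WT nicotine 12 to 1.76% in WT nicotine 6. The WT share was 1.67% ± 0.036 (SD, n = 3) with air and 1.68% ± 0.087 with nicotine. The KO share was 1.71% ± 0.039 with air and 1.61% ± 0.021 with nicotine. The WT air libraries 8, 9 and 10 lay at 1.63%, 1.66% and 1.70%, and the KO air libraries 1, 2 and 7 at 1.68%, 1.75% and 1.69%. In KO nicotine they lay at 1.63%, 1.59% and 1.62% (3, 4 and 5), all below the lowest KO air library, while WT nicotine spanned the whole range of the 4 groups. Mitochondrial genes, which share the same total, took 3.0% to 7.52% of counts. With them left out, the KO nicotine share was 1.70% to 1.74% and the KO air share 1.75% to 1.86%, still without overlap. Counts of large-subunit genes were 1.43 to 1.58 times those of small-subunit genes in every library. Because tissue was measured in bulk, fewer cells of a type and less RNA per cell cannot be told apart.

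**Figure D1:**
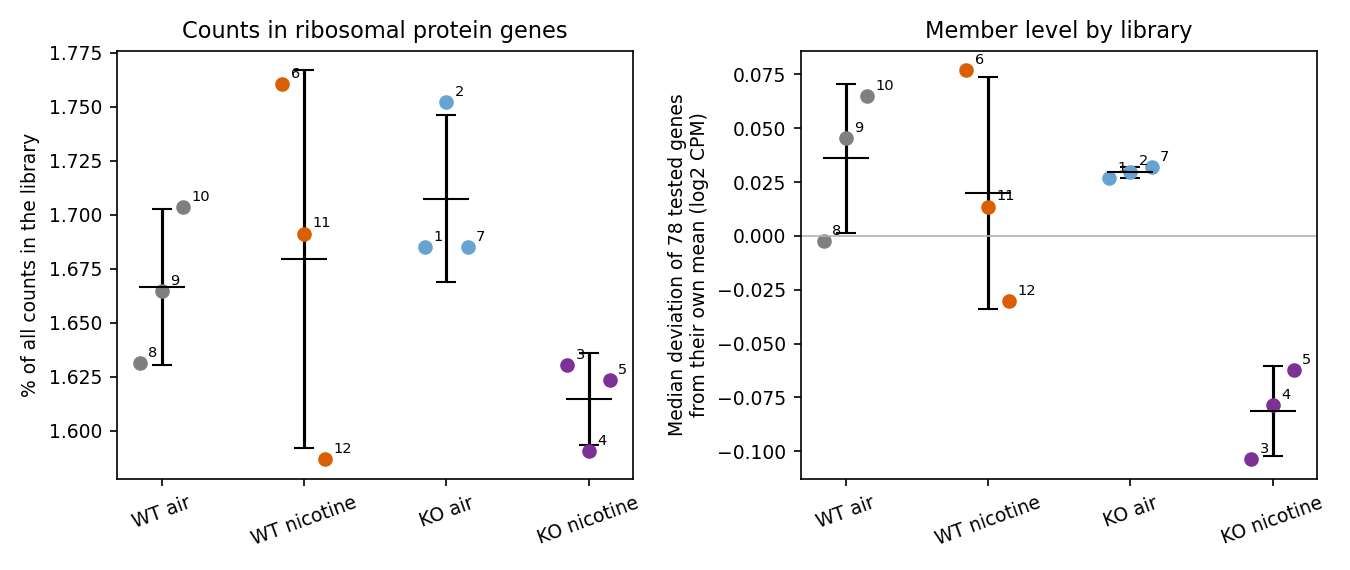
Left, the percentage of each library's counts in the 81 ribosomal protein genes; right, the median over 78 tested genes of each gene's log2 CPM minus its own mean over the libraries. Points are libraries with their numbers, horizontal bars group means and vertical bars SD (n = 3), and the vertical axes do not start at 0. The 3 KO nicotine libraries lie lowest on the right, at -0.10, -0.08 and -0.06.

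Single genes differed far more in level than they did between libraries. On the scale of CPM, unadjusted for length, the highest members were Rps3 (mean 596 CPM), a small-subunit protein at the mRNA entry that also has a role in DNA repair, Rpl4 (539.9), a large-subunit protein that reaches into the exit tunnel, Rpsa (539.8), known also as the laminin receptor precursor, Rplp0 (502) and Rplp2 (490.4). The lowest tested were Rpl6l (1.23), Rps27l (26.0), Rpl35 (32.6), Rpl27 (35.0) and Rpl39 (55.5). Neighbours at the top were not separated: Rpl4 spanned 498 to 590.5 CPM over the 12 libraries and Rpsa 513 to 592. Rps27l (22.4 to 30.5 CPM) and Rpl35 (25.8 to 36.7) also overlapped.

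Per kilobase of coding length, the level of the 77 tested members with a principal protein-coding transcript had a median of 375 CPM per kb, and 62 lay within 2-fold of it. The lowest were Rpl27 at 85.8 and Rpl35 at 88.3 CPM per kb. The acidic stalk proteins Rplp1 and Rplp2, which recruit elongation factors and are carried in more than 1 copy per ribosome, had 1411 and 1422 CPM per kb. Their partner Rplp0, the base of the stalk, had 528. Rpl41, the shortest member with 75 coding bases, had 3318, a value its very short coding length raises because reads of the untranslated parts are counted too. Per kilobase of the whole transcript the levels ran from 34.4 to 1165.

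Processed pseudogenes copy many of these genes, and how reads that match several places were counted is not given in the sources used here. In each member's coding sequence, the share of 50-base stretches also found in a transcript of another gene had a median of 93.0%. It was 100% in 29 members and over 50% in 66. In Rps3 it was 8.1% and in Rpl4 20.3%. Across the 77 members this share and the level per coding kilobase had a Spearman rho of -0.17, as a description over genes that come from the same libraries. Levels of single members relative to each other are therefore uncertain, and comparisons of the same member between libraries are less exposed to this.

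**Figure D2:**
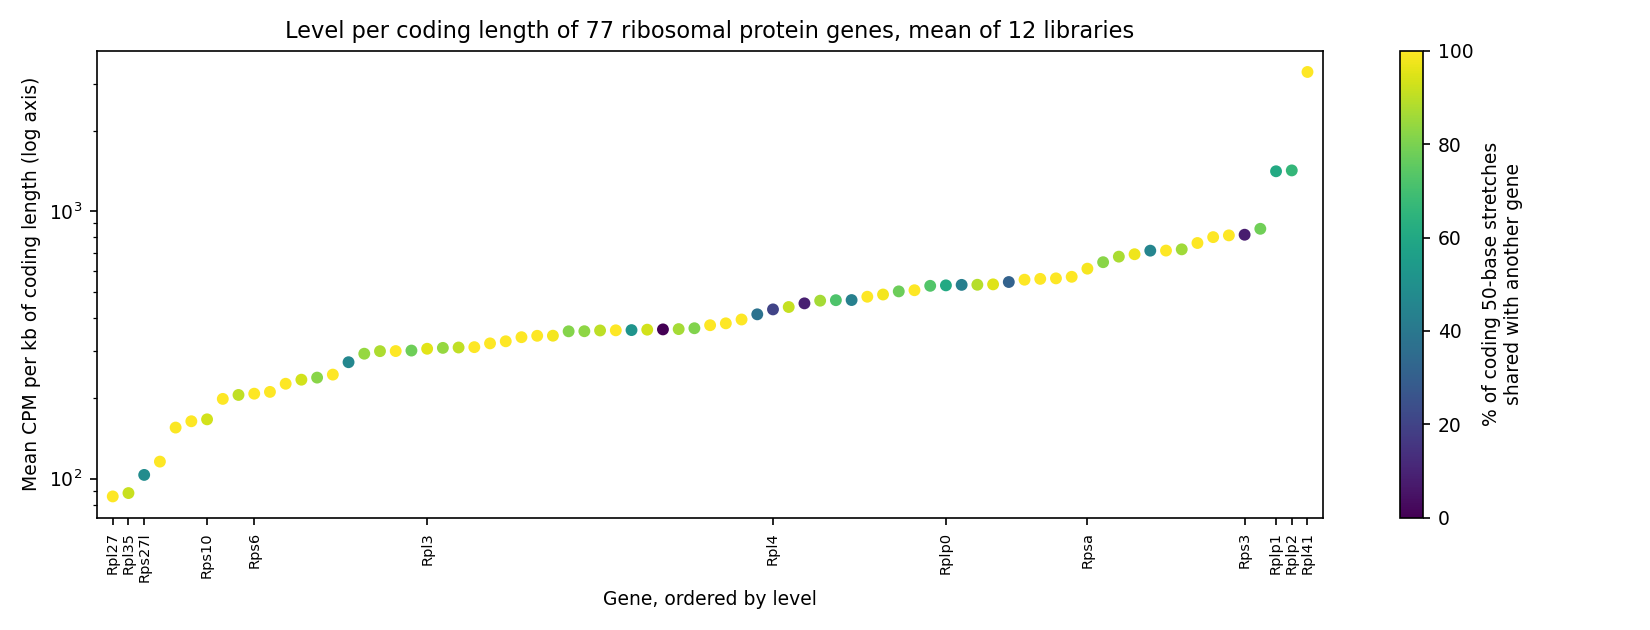
Mean CPM over 12 libraries per kilobase of coding length (log axis) for 77 ribosomal protein genes in rising order (some of those described in the text are labelled), coloured by the percentage of 50-base coding stretches shared with another gene. Most genes lie near the median of 375, with Rpl41 and the stalk genes Rplp1 and Rplp2 above and Rpl27, Rpl35 and Rps27l below.

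Members known for expression in a few tissues had almost no counts. Rpl10l, a testis copy of Rpl10, had 1 count in the 12 libraries together, where Rpl10 had 254 to 351 CPM. Rpl39l, a copy of Rpl39 known from testis, had 7 counts in all, and Rpl3l, a form of Rpl3 known from heart and skeletal muscle, had 26 with 4 libraries at 0. Rpl3 itself, which lies by the peptidyl transferase centre, had 331 to 400 CPM. These 3 were the untested members, and no fold change is given for them. Rps4l was not among the members, and Rps4x, the X-linked small-subunit gene, had 247 to 305 CPM.

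Other pairs were both measured. Rps27l, a p53-responsive copy of Rps27, gave 14.8% of the summed CPM of the pair in the median library, with a range of 13.5% (KO nicotine 5) to 18.4% (KO nicotine 4). In WT it gave 16.6% ± 1.0 with air and 14.4% ± 0.64 with nicotine (SD, n = 3). In KO it gave 15.2% ± 2.0 with air and 15.4% ± 2.6 with nicotine. The WT groups did not overlap for Rps27l itself, while the KO difference was far below the spread within groups. Rpl22, an RNA-binding large-subunit protein whose loss is tolerated by cells, had 187 to 227 CPM, and its paralog Rpl22l1 gave 3.40% to 6.74% of their sum. Rpl36al gave 25% to 35.4% of its sum with Rpl36a, and Rpl7l1 10.4% to 15.8% of its sum with Rpl7.

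The spread of a member over the 12 libraries was small. The coefficient of variation (CV, SD over mean of CPM, over all 12 libraries) had a median of 6.30% in the 78 tested members, and 72 were under 10%. Among the 5777 other tested genes with a mean in the members' range of 26.0 to 596 CPM (the range without Rpl6l) the median CV was 13%, and 27.9% were under 10%. Among the lowest CVs were those of the small-subunit gene Rps18 (3.77%, 128 to 143 CPM) and the large-subunit gene Rpl19 (3.91%, 284 to 319 CPM). The highest belonged to Rpl6l (33.6%), where counting error is large at 172 counts in all, Rps3 (13.8%) and Rpl39 (11.6%).

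Rps3 was the exception among abundant members. In WT it had 576, 609 and 627 CPM with air and 738, 650 and 560 with nicotine (6, 11 and 12). In KO it had 587, 432 and 630 CPM with air (1, 2 and 7) and 470, 608 and 660 with nicotine (3, 4 and 5). The lowest library was KO air 2 and the highest WT nicotine 6, and all 4 groups overlapped. KO air 2 and KO nicotine 3 were the libraries with the most liver transcripts (497 and 2676 CPM of unscaled totals), and the part of these in the Rps3 values was not tested. By contrast Rpsa had 525 to 557 CPM in KO nicotine and 517 to 541 in KO air, with overlapping groups.

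**Figure D3:**
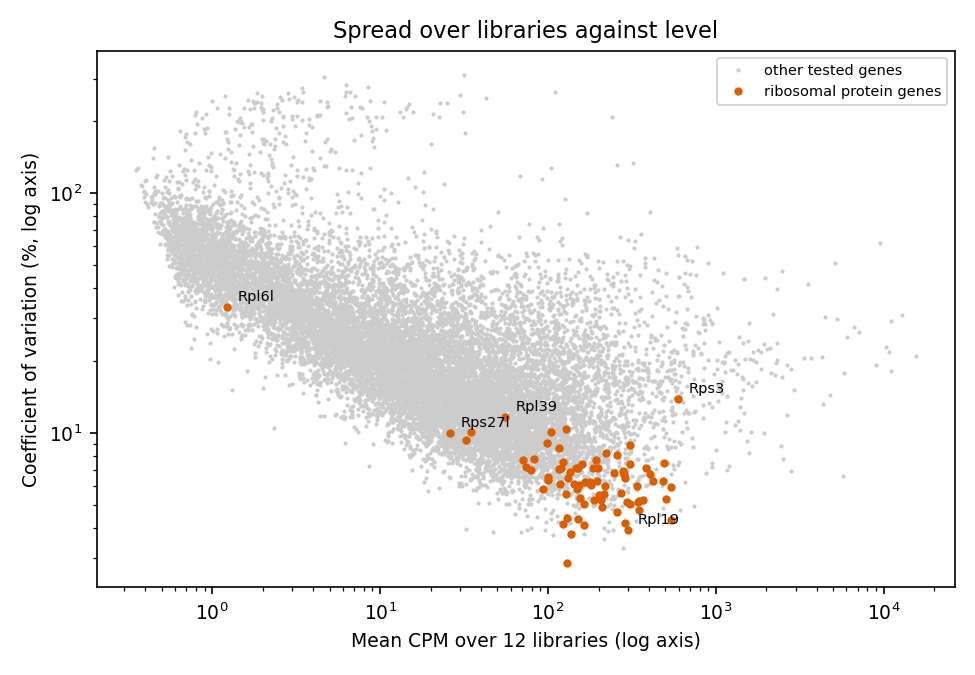
Coefficient of variation over 12 libraries (%, log axis) against mean CPM (log axis) for the tested genes, with ribosomal protein genes in orange. Members lie along the lower edge at their level, with Rpl6l, Rps3 and Rpl39 highest.

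Members also varied together. Pearson's r between a member's log2 CPM and the mean of the other members over the 12 libraries had a median of 0.65, and 57 of 78 were over 0.5, as were 9.22% of other tested genes. Members share libraries and, through pseudogene copies, may share reads. The highest was the X-linked Rpl36a (0.92), and 5 were below 0: Rpl6l, Rplp2, Rpl11, Rps18 and Rpl36. Of 14543 non-members, the 5 with the pattern most like the members' mean were Txndc15 (r 0.90), the initiation factor subunit Eif3h (0.90), the elongation factor Eef1a1 (0.90), the ribosomal protein gene Rps3a1 (0.88) and Ccdc65 (0.88, at only 1.04 CPM).

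In edgeR's quasi-likelihood test with Benjamini-Hochberg adjustment over all tested genes, no member passed 0.05 in any of 7 contrasts. The share of all tested genes that passed was 0.0205% for nicotine in WT, 0.00684% for KO against WT in nicotine, and 0% for nicotine in KO, KO against WT in air, the interaction, nicotine averaged over genotypes and genotype averaged over exposures. At unadjusted p under 0.05 edgeR had 1 member for nicotine in KO (1.28%), 3 for KO against WT in nicotine (3.85%) and 0 in the other 5. Over all tested genes these edgeR shares were 4.58% for nicotine in KO, 8.34% for KO against WT in nicotine and 4.36% to 10.9% in the others. The members lay below this background in edgeR. DESeq2 had 6 members for nicotine in KO, 4 for KO against WT in nicotine, 2 for each average and 0 elsewhere. Counts from limma voom were 3 and 3 for the same contrasts, 1 for the interaction and 0 elsewhere. Shares over all tested genes are not given for these tools. Neither had a member past its adjusted threshold. Of all genes, DESeq2 had 115 past it for nicotine in WT, 0 for nicotine in KO and 74 for KO against WT in nicotine. It had 13 for KO against WT in air, 9 for the interaction, 91 for averaged nicotine and 107 for averaged genotype. With limma voom 3 passed for nicotine in WT, 1 for KO against WT in nicotine and 0 elsewhere. The precision was high for these genes: the standard error of the log2 fold changes had a median of 0.10 in the members and of 0.22 over all tested genes (both for nicotine in WT). Here and for the intervals below, all tested genes were taken at any level. They were not matched to the members' range of CPM, as the CVs above were. The 95% interval lay within 1.5-fold in either direction for 77 of 78 members in the 6 contrasts other than the interaction, Rpl6l being the exception, and for 38.3% to 59.1% of all tested genes. For the interaction it did so for 75 members, the others being Rpl35, Rpl39 and Rpl6l, and for 22.3% of all tested genes.

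For nicotine in WT, members lay on both sides of 0. The median log2 fold change was -0.02, against -0.005 over all tested genes, and 44 of 78 lay below 0. Without WT nicotine 12 it was 0.02. The groups did not overlap, with nicotine lower, in 5 members, among them Rpl10a, Rpl27, Rpl6l and Rps27l, which is 6.41% against 6.05% of all tested genes. In the higher direction it was 0 members against 7.13%. The smallest p-values belonged to Rpl18, Rps10 and Rpl35a. Rpl18, a large-subunit protein, had 111, 135 and 130 CPM in WT air and 111, 109 and 115 in WT nicotine (6, 11 and 12), with overlapping groups and a log2 fold change of -0.16 ± 0.11 (SE, edgeR adjusted p = 0.646). Rps10, a small-subunit protein whose human gene is mutated in some patients with Diamond-Blackfan anaemia, had 90.6, 80.3 and 95.2 CPM in WT air and 80.2, 80.6 and 78.6 in WT nicotine. Its groups overlapped only through WT air 9 and WT nicotine 11 (-0.15 ± 0.10, edgeR adjusted p = 0.647). Rpl35a, another gene of that anaemia in the large subunit, differed by -0.14 ± 0.09 (edgeR adjusted p = 0.665).

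In the libraries labelled KO, most members had a small negative log2 fold change with nicotine against air, none past the test. The median was -0.11, against 0.01 over all tested genes, and 72 of 78 lay below 0, against 48.5% of all tested genes. The exceptions above 0 were Rpl32, Rpl6l, Rplp2, Rps2, Rps3 and Rpsa. The large- and small-subunit medians were -0.11 and -0.11. All KO nicotine libraries lay below all KO air libraries in 30 members, or 38.5%, against 5.55% of all tested genes, and no member had them all above, against 5.13%. Without KO nicotine 3 the median was -0.09 and the count 35, against 9.04% of all tested genes in the smaller comparison. The count was 15 (against 4.78%) when CPM was taken on library totals without mitochondrial genes.

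Rpl35, which lies at the exit of the peptide tunnel, had the smallest p in this contrast. In KO it had 35.1, 33.5 and 36.7 CPM with air (1, 2 and 7) and 28.2, 25.8 and 30.9 with nicotine (3, 4 and 5), without overlap. In WT it had 32.0, 33.4 and 34.0 CPM in air and 34.2, 32.3 and 34.8 in nicotine, where the groups overlapped. The log2 fold change in KO was -0.31 ± 0.11 (SE; 95% interval -0.55 to -0.07; unadjusted p = 0.0158, edgeR adjusted p = 0.878), and the test of the difference between genotypes gave -0.34 ± 0.16 (edgeR adjusted p = 0.999). The start of Rpl35 carries the 11-base pyrimidine run printed above.

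Rpl13a, a large-subunit protein that also acts off the ribosome in interferon-gamma-induced translational silencing, had 445, 456 and 457 CPM in the KO air libraries and 383, 394 and 392 in the KO nicotine libraries. These groups lay apart, while WT air (395, 442 and 433) and WT nicotine (418, 426 and 405) overlapped. Its log2 fold change in KO was -0.22 ± 0.10 (edgeR adjusted p = 0.878). Rps6, the target of the S6 kinases, had 164, 151 and 164 CPM in KO with air and 158, 139 and 143 with nicotine, which overlapped (-0.12 ± 0.10). The stalk genes had log2 fold changes of -0.06 ± 0.11 (Rplp0), -0.08 ± 0.12 (Rplp1) and 0.09 ± 0.12 (Rplp2). Rpl5 and Rpl11, which bind Mdm2 when ribosome assembly is disturbed, were named after their values were seen and had -0.10 ± 0.10 and -0.02 ± 0.10.

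**Figure D4:**
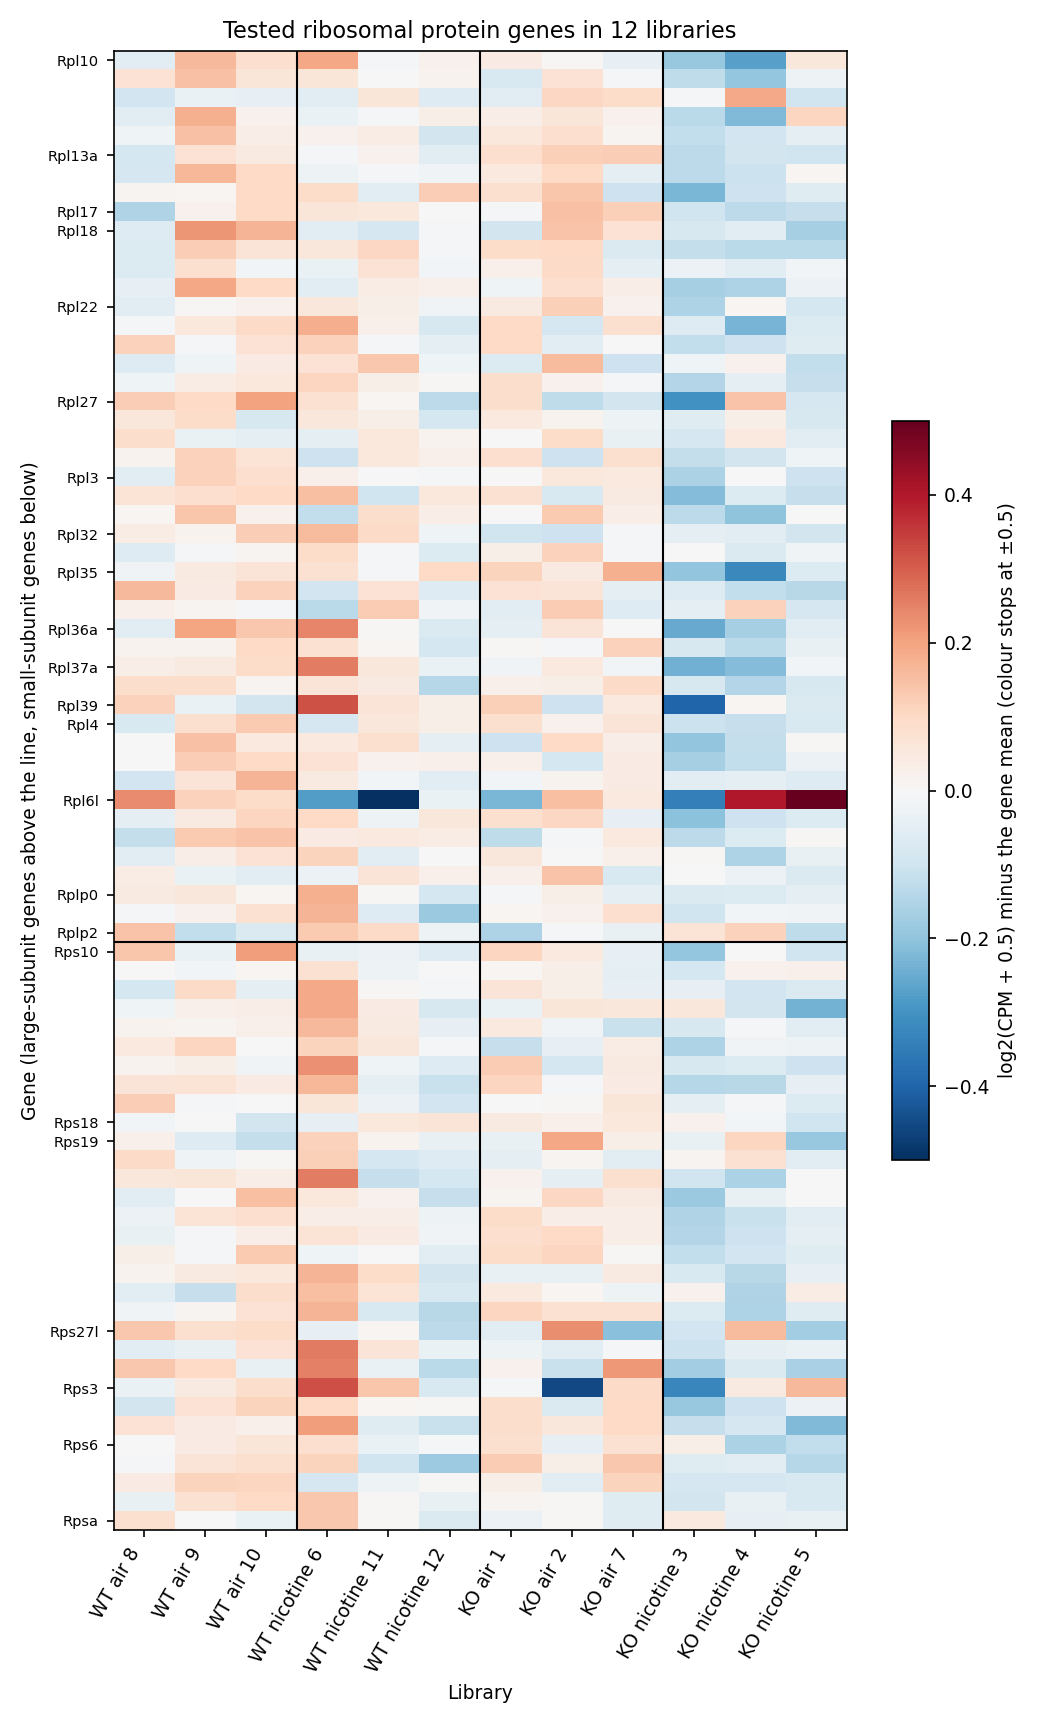
Each row is a tested ribosomal protein gene (some of those described in the text are labelled) and each column a library; colour is log2 (CPM plus a small constant) minus the gene's mean, blue for lower and red for higher. Of all 78 tested genes, 70, 62 and 67 are below their own mean in KO nicotine (libraries 3, 4 and 5), and 56 are in WT nicotine 12.

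Between genotypes in air the members were centred near 0, with a median of -0.01 (all tested genes 0.001; 0.04 for the members with library totals as the scaling) and 45 of 78 below 0. KO lay below WT without overlap in 2 members (Rpl27 and Rpl32), against 6.06% of all tested genes, and above it in 4 (Rpl13a, Rps18, Rps24 and Rps27a, 5.13%), against 5.75%. Rpl27 had 37.9, 37.3 and 40.1 CPM in WT air and 37.1, 31.9 and 32.7 in KO air (-0.18 ± 0.13, edgeR adjusted p = 0.995). Rpl32 had 171, 168 and 181 CPM in WT air and 155, 155 and 165 in KO air (-0.13 ± 0.10, edgeR adjusted p = 0.995). Rps19, the gene most often mutated in Diamond-Blackfan anaemia, differed by 0.12 ± 0.11 (edgeR adjusted p = 0.995), with overlapping groups.

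Between genotypes in nicotine the median was -0.10 (all tested genes 0.01) and 73 of 78 members lay below 0, against 47.7% of all tested genes. With library totals as the scaling the median was -0.06. This contrast shares its KO nicotine libraries with the one above, so the values are not independent of it. KO lay below WT without overlap in 20 members, or 25.6%, against 5.59% of all tested genes, and above in 0, against 5.8%. This count depended on the scaling: it was 21 with DESeq2 size factors (background 5.72%), 4 with upper-quartile factors (background 4.41%), 5 with library totals (4.11%) and 4 with totals without mitochondrial genes (3.50%). Without KO nicotine 3 it was 24 (background 9.89%), and without WT nicotine 12, the WT nicotine library with the lowest share, 41 (background 11.6%).

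The members with an unadjusted p under 0.05 there were Rpl37a, Rpl35 and Rpl39. Rpl37a, a zinc-binding large-subunit protein, had 117, 102 and 95.5 CPM in WT nicotine (6, 11 and 12) and 82.8, 84.1 and 96.9 in KO nicotine (3, 4 and 5), which overlapped (-0.25 ± 0.11, edgeR adjusted p = 0.546). Rpl35 differed by -0.25 ± 0.11 (edgeR adjusted p = 0.569). Rpl39, a short protein that lines the exit tunnel, had 68.8, 57.6 and 56.2 CPM in WT nicotine and 41.7, 55.5 and 52.4 in KO nicotine, without overlap (-0.29 ± 0.13, edgeR adjusted p = 0.587). KO nicotine 3 was the lowest and WT nicotine 6 the highest of the 12 libraries for Rpl39. Without KO nicotine 3 the Rpl39 difference was -0.17 (edgeR adjusted p = 0.908), and without WT nicotine 6 it was -0.20 (edgeR adjusted p = 0.828). Without KO nicotine 3 Rpl37a differed by -0.20 and Rpl35 by -0.24.

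The test of whether nicotine acted differently in the genotypes gave a median of -0.08 (all tested genes 0.02), with 68 of 78 below 0. The smallest p-values were those of Rpl35 (above), Rpl17 (-0.25 ± 0.14) and Rpl39 (-0.31 ± 0.19), all with an edgeR adjusted p of 0.999. Without KO nicotine 3 the Rpl39 value was -0.19. Rpl17, a large-subunit protein at the tunnel exit, had 178, 201 and 211 CPM with air and 206, 205 and 198 with nicotine in WT. The KO values were 197, 219 and 215 with air and 184, 180 and 182 with nicotine. KO nicotine lay below both KO air and WT nicotine without overlap, and all its coding 50-base stretches occur in other genes. Averaged over genotypes, nicotine gave a median of -0.07, led by Rpl35a (-0.14 ± 0.07, edgeR adjusted p = 0.466), Rpl18 and Rps10. Averaged over exposures, genotype gave a median of -0.05 (-0.009 with library totals as the scaling), led by Rpl32 (-0.14 ± 0.07, edgeR adjusted p = 0.621), Rpl37a and Rpl36a.

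**Figure D5:**
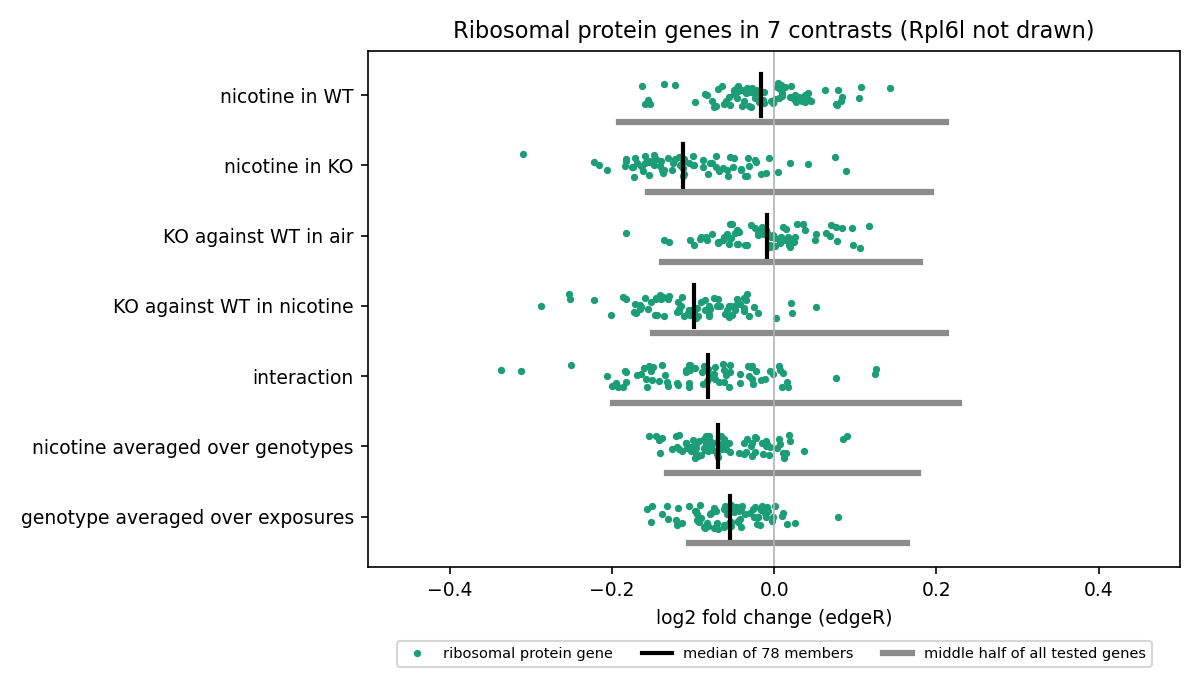
Log2 fold changes (edgeR) of 77 tested ribosomal protein genes in 7 contrasts, with black lines at the median of 78 and grey bars for the middle 50% of all tested genes; Rpl6l is not drawn. Members form a narrow band that sits near 0 for nicotine in WT and KO against WT in air, and near -0.11 and -0.10 for nicotine in KO and KO against WT in nicotine.

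Members with and without the pyrimidine run had similar medians. For nicotine in KO the median was -0.12 in the 13 with the run and -0.11 in the 44 tested members whose windows lacked it. For KO against WT in nicotine it was -0.08 and -0.10. The 4 X-linked members (Rpl10, Rpl39, Rps4x and Rpl36a), a grouping made after their values were seen, had a median of -0.21 for KO against WT in nicotine, where the autosomal members had -0.10. For nicotine in KO the medians were -0.15 and -0.11, for KO against WT in air -0.03 and -0.009, and for nicotine in WT 0.01 and -0.02.

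Markers of other cell types were summed beside the KO contrasts. In KO, summed CPM of 10 smooth muscle markers was 36485 to 43772 with air and 25989 to 42479 with nicotine. The adipocyte list had 3122 to 5684 and 3490 to 8326, and mitochondrial genes 3.73% to 5.70% and 4.38% to 7.25% of counts. Skeletal muscle markers, of which 11 were tested, had 12.0 to 18.9 CPM with air and 10.2 to 233 with nicotine. The 233 was in KO nicotine 3, with 46.8 and 10.2 in KO nicotine 4 and 5. Lymphocyte markers had 28.3 to 45.9 CPM with air and 17.7 to 25 with nicotine. For nicotine in KO, 10 of 10 smooth muscle markers lay below 0 (median -0.37), as did 9 of 9 fibroblast markers (-0.10). So did 6 of 6 red cell (-0.44) and 10 of 10 lymphocyte markers (-0.74). Above 0 lay 11 of 11 adipocyte (median 0.51) and 11 of 11 skeletal muscle markers (2.44). The other lists were mixed, with 5 of 7 cardiac muscle markers (-1.06) and 9 of 14 immediate early genes (-0.16) below 0. There 10 of 12 macrophage (0.20) and 7 of 8 endothelial markers (0.27) lay above 0. Between the nicotine groups, WT against KO, red cell markers summed to 4468 to 19781 CPM and 5080 to 7320, with 6 of 6 tested genes below 0 in KO against WT (median -0.90). Likewise 9 of 9 fibroblast markers (median -0.33), 11 of 12 macrophage markers (-0.35), 9 of 10 lymphocyte markers (-0.35) and 14 of 14 immediate early genes (-0.78) lay below 0, and 11 of 11 skeletal muscle markers lay above (1.29). Less one-sided were the smooth muscle (8 of 10 below 0, median -0.05) and endothelial markers (6 of 8 above, 0.12). The adipocyte (7 of 11 above, 0.18) and cardiac muscle markers (4 of 7 above, 0.0006) were also mixed. WT nicotine 6, with the highest share of counts in the members, also had the highest red cell (19781 CPM) and lymphocyte (49.7 CPM) sums. It was highest too for the fibroblast (9918 CPM), macrophage (731 CPM) and endothelial (1730 CPM) sums. For the smooth muscle, adipocyte, skeletal muscle, cardiac muscle and immediate early lists, other libraries were higher. The part of tissue content in the members' values was not tested.

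Genes of the same machinery outside the rule were described from lists, and no gene of these lists passed the edgeR threshold in any contrast. Rps3a1, the small-subunit gene that the symbol rule misses, had 332 ± 5.9 CPM in KO with air and 285 ± 10.1 with nicotine (SD, n = 3; -0.22 ± 0.10, edgeR adjusted p = 0.878). Fau, a fusion of a ubiquitin-like protein with a small-subunit protein, had 164 ± 12.7 and 151 ± 5.0, and Gnb2l1, the scaffold on the small subunit, 336 ± 4.7 and 309 ± 18.3. Rps27rt had 0.49 to 1.53 CPM.

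Of 17 translation factors known for oligopyrimidine starts, 16 lay below 0 for nicotine in KO, with a median of -0.14, and 6 lay below 0 for nicotine in WT, with a median of 0.03. Eef1a1, which delivers aminoacyl-tRNA, differed by -0.16 ± 0.13 in KO, and Eef1b2, its exchange factor, by -0.10 ± 0.10. Of 39 ribosome assembly genes, 26 lay above 0 for nicotine in KO, with a median of 0.15. They ranged from -0.18 to 0.54, with a lowest edgeR adjusted p of 0.878. The RNA polymerase I subunit genes Polr1a and Polr1b, named as the first 2 of the list, had 35.0 and 11.6 CPM in KO with air. With nicotine they had 50.7 and 14.8. Of 76 tested genes for mitochondrial ribosomal proteins, a list added after the data were seen, 60 lay above 0 for nicotine in KO, with a median of 0.13. The mTORC1 and Myc list had a median of 0.08 (Mtor 173 and 174 CPM, Rptor 80.2 and 83.9), and the p53 list 0.07 (Trp53 28.5 and 22.8 CPM, Mdm2 50.6 and 52.4), with KO air first in each pair.

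In the authors' deposited table of nicotine against air, 0 of 79 listed members had an adjusted p under 0.05 in WT, against 0.714% of all its genes, and 0 of 79 in KO, against 0.0406%. In the authors' deposited table an unadjusted p under 0.05 was given for 1 of those members in KO (Rpl13a), against 4.82% of all genes, and for 0 in WT, against 7.55%. The log2 fold change of Rpl35 in KO was -0.31 in the authors' deposited table, with an unadjusted p of 0.0621 and an adjusted p of 0.997.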

How the data were processed

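RNA of thoracic aorta was sequenced in 4 groups of 3 libraries. The deposited values used are raw read counts per gene symbol, made with HTSeq on mm9 per the submitters' processing notes. The aligner, annotation, read length and strand setting were not given in the sources used here. The authors' deposited tables of nicotine against air give log2 fold changes with a test score, and p-values.

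Members and lists were chosen with earlier results of these data known. Counts were fitted with edgeR 4.0.16 (filterByExpr, TMM, robust quasi-likelihood, 4 group means), with Benjamini-Hochberg adjustment over 14621 genes. DESeq2 1.42.0 and limma voom (3.58.1) were alternatives. CPM used TMM-scaled totals. Coding lengths and shared 50-base stretches came from GENCODE M21, and start windows from RefSeq, both on GRCm38. Depth limits Rpl6l and the untested members most. The other tested members had at least 3631 counts in all. Counting error in the lowest of these was not set apart from the spread between libraries. The procedure was tested on simulated counts. The planted changes were larger than nearly all of the members' differences, so that test does not cover differences of their size. R 4.3.3 and Python 3.11.15 were used.

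Genes named were, per contrast, the 3 members with the smallest p where fewer than 3 passed. To these came the 5 highest and 5 lowest by CPM, the 3 with the largest and smallest CV, fixed paralog pairs, stalk genes, Rpl22, Rpsa, Rps6, all untested members, relatives outside the rule, the 5 non-members most like the members, and the first 2 genes of each list. For marker lists the sums are given in place of those 2 genes. Some genes that the rule takes are left out of the text.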

Additional observations from a re-analysis of the deposited data

Results flagged for a closer look

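Reads were also counted for 16 pseudogenes of ribosomal proteins that the report's comparisons do not use. They summed to 1503 counts over the 12 libraries, or 0.0644% of the counts in the members. Rpl9-ps6 had 644 counts in all and Rpl23a-ps3 had 293, both above the limit that a count of 0 allows, 3 counts. Groups of 3 libraries were too small for a test of single outlying libraries.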

How the results depend on the processing

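No member passed the adjusted threshold in any of 120 combinations of a contrast with an alternative setting. The settings were other scalings, filters, tools, fewer groups and each library left out. The 21 log2 fold changes named by smallest p kept their sign in all 360 of their alternative values. These were picked for a small p in the same data, so a kept sign was likely from the start. Of 120 alternative medians, 112 stayed within the spread between libraries. Without WT nicotine 12 the median was 0.024 for nicotine in WT (range over left-out libraries -0.030 to 0.024) and -0.12 for the interaction (-0.12 to -0.065). With library totals, including or leaving out the members, the median was 0.039 and 0.040 for KO against WT in air, -0.056 and -0.057 for KO against WT in nicotine, and -0.0086 and -0.0088 for genotype averaged. The share of counts was 1.75% on totals without mitochondrial genes.

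Counts of members without overlap, in the lower direction, were tried under alternatives chosen after seeing the data. Under upper-quartile factors, library totals and totals without mitochondrial genes they were 8, 3 and 3 for nicotine in WT (5 as reported; background 8.11%, 5.36% and 6.48% of all tested genes), 1, 0 and 0 for KO against WT in air (2; background 5.23%, 4.03% and 4.25%) and 4, 5 and 4 for KO against WT in nicotine (20; background 4.41%, 4.11% and 3.50%). For nicotine in KO (30) the last of these gave 15 (background 4.78%). The counts for that contrast under upper-quartile factors and library totals are not given here. Leaving out a library, which by itself makes overlap rarer, gave 5 to 18 (background 9.06% to 18.9%), 4 to 12 (9.37% to 16.4%), 22 to 41 (9.07% to 12.7%) and 35 to 42 (8.26% to 16.0%) in that order of contrasts. The cause was not tested. No paired analysis was possible because each library number occurs once, so no groups share a number.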
